A study of Homo sapiens with 18 samples.

Results

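Serine/arginine-rich (SR) proteins and heterogeneous nuclear ribonucleoproteins (hnRNPs) are the main families of RNA-binding proteins that choose splice sites in human cells. The genes described here were taken by name from the deposited tables: symbols of the form SRSF plus a number and symbols that start with HNRNP, with pseudogenes and antisense RNAs left out, and with a mean normalized count of at least 10 in both tables. Of 43 symbols that matched, 5 were left out by name and 8 by their mean, which left 30 genes (11 SR genes and 19 hnRNP genes) of 26485 listed.

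SR proteins bind exonic enhancers through an RNA recognition motif and recruit the spliceosome through a phosphorylated arginine/serine tail. Many hnRNPs bind silencers and oppose them, and hnRNPs also act in RNA export, stability and translation. Both families regulate themselves: many of their pre-mRNAs hold an exon with an early stop codon, whose inclusion sends the transcript to nonsense-mediated decay.

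RNA was sequenced from PANC-1, a human pancreatic ductal adenocarcinoma cell line, in 6 groups of 3 libraries. Cells were collected 72 h after transfection with a control siRNA or with either of the siRNAs named PKR siRNA 1 and PKR siRNA 2, which target EIF2AK2, the gene of the double-stranded RNA-activated kinase PKR, or 72 h after addition of the vehicle DMSO or of the PKR inhibitor C16 at 400 or 800 nM. The siRNA libraries are labeled run 1 and the DMSO and C16 libraries run 2, and the labels do not say what a run is. The authors normalized the runs in separate tables, so each group was compared only within its own table. The groups of each table share 1 control, and siRNA against C16 cannot be told apart from run 1 against run 2.

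Reads on genes numbered 1512940 to 1873906 per library in run 1 and 894145 to 1474308 in run 2. Within run 2, the DMSO libraries held 1148151 to 1474308 reads, the 400 nM libraries 977167 to 1050520 and the 800 nM libraries 894145 to 1150862, and the part of depth in the C16 results was not tested. EIF2AK2 fell by 3.04 on the log2 scale with PKR siRNA 1 and by 3.35 with PKR siRNA 2 (limma adjusted p = 4.69e-18 and 2.58e-20). With C16 the EIF2AK2 log2 fold change was 0.01 at 800 nM and -0.22 at 400 nM (adjusted p = 0.974 and 0.35). The epithelial keratins KRT8, KRT18 and KRT19 had mean normalized counts of 995 to 3866 in the tables, whereas EPCAM (41.9 and 24.6), CDH1 (28.8 and 22.9) and KRT7 (11.4 and 3.98) were low beside VIM (4973 and 2483). Of the fibroblast genes, COL1A2 and DCN were listed at 0 in all 18 libraries, LUM reached at most 1.9, and COL1A1 had means of 77 and 115. Of the leukocyte genes, PTPRC and CD3E were listed at 0 in all 18, whereas CD68, a lysosomal protein of macrophages and other cells, had a mean of 53.3 with DMSO, 158 at 400 nM C16 and 115 at 800 nM. The endothelial genes PECAM1 and VWF reached at most 0.995. COL1A1 had means of 146, 129 and 70.2 in the same order of C16 groups. In the siRNA table the means in control, PKR siRNA 1 and PKR siRNA 2 cells were 161, 243 and 198 for CD68 and 95.2, 25.6 and 110 for COL1A1. They were 102.6, 12.3 and 10.7 for EPCAM, 1214, 799.5 and 3016 for KRT19, and 4736, 4940 and 5242 for VIM. With DMSO, 400 nM and 800 nM C16 they were 17.8, 25.65 and 30.3 for EPCAM, 1582, 841 and 562 for KRT19, and 3057, 2391 and 2000 for VIM. SOX9 had means of 249.7 and 114.6 in the tables, and the mesenchymal gene CDH2 of 95.5 and 71.5. The part of these markers in the member results was not tested.

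The sequences below are exons of transcripts annotated to decay, shown because reads from such exons can enter the gene counts used here. Self-regulation itself was not tested. In the GENCODE 44 annotation of hg38, the build of the deposited files, 25 of the 30 genes had a transcript annotated to undergo nonsense-mediated decay, including all 11 SR genes. In 10 of them (6 SR and 4 hnRNP genes), 15 internal exons held the stop codon of a decay-annotated transcript. They lay outside every exon of the protein-coding transcripts, but whether each is a cassette exon was not checked. The SRSF7 exons chr2:38748898-38749173 and chr2:38748898-38749346 overlap, and the HNRNPU exon lies beyond the end of its deposited gene model. The deposited gene models counted 2 of these 15 exons whole, those of SRSF3 at chr6:36599821-36600276 (456 bases, + strand) and of SRSF6 at chr20:43459153-43459420 (268 bases, + strand). The other lines give exons of SRSF7 (chr2:38748898-38749173, 276 bases, − strand), SRSF4 (chr1:29165890-29166064, 175 bases, − strand) and HNRNPH1 (chr5:179621843-179621976, 134 bases, − strand), which were not counted. Each line runs 5′ to 3′ from the start of the exon to the stop codon, which is in capitals.
SRSF3: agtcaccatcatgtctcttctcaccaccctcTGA
SRSF6: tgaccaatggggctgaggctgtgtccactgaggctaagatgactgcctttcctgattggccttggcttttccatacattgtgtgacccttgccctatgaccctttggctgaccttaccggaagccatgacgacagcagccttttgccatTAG
SRSF7: ggcagaaaatttgagacggTGA
SRSF4: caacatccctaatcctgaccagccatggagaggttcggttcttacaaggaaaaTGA
HNRNPH1: cgttggtaacggaaagcgacctgTAA

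The gene-level tables do not separate these decay transcripts from the coding ones. A gene count can therefore be a sum over both kinds for any of the 25 genes with a decay-annotated transcript, through exons that both kinds share. In SRSF3 and SRSF6 the exon with the stop codon is counted as well, and no statement on exon use is made.

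Promoters are shown for SRSF3 and HNRNPDL, which were lower with C16, and for HNRNPAB, which was higher. They span 300 bases around the RefSeq start (GRCh38.p14), at chr6:36594112-36594411 (+ strand), chr4:82430176-82430475 (− strand) and chr5:178204283-178204582 (+ strand), in that order. Capitals mark the letters of 7 motifs searched on both strands: the CCAAT box (CCAAT), the TATA box (TATAAA), the ETS core (CCGGAA), the GC box (GGGCGG), the cAMP response element (TGACGTCA), its shorter form (TGACGT), which lies within the longer one, and an E2F site (TTTGGCGC).
SRSF3: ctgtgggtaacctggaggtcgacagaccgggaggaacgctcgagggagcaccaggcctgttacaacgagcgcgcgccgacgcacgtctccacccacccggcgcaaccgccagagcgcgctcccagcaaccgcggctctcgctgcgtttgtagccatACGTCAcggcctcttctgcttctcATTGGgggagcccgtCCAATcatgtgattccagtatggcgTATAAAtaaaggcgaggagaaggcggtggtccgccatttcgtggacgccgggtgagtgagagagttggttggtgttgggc
HNRNPDL: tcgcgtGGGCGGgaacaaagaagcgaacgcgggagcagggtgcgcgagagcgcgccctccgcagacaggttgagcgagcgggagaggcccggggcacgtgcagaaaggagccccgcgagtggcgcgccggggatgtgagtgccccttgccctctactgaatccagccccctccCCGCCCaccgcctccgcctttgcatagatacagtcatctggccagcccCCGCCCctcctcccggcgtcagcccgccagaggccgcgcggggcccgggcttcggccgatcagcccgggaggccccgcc
HNRNPAB: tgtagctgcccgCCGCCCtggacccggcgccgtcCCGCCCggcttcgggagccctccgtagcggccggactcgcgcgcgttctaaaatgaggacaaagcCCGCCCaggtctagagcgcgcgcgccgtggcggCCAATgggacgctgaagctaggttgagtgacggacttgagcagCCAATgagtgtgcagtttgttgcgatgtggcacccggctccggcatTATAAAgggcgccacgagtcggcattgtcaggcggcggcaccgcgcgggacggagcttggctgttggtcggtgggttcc

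RefSeq promoters were matched for 28 of the 30 genes. The CCAAT box lay in 14 of the 28, beside 34.6% of 35116 promoters of the same length, the GC box in 18 beside 45%, and the TATA box in 5 beside 11.5%. The ETS core lay in 6 (17.2% of all promoters), the shorter cAMP form in 4 (7.98%), and the full cAMP element (1.85%) and the E2F site (0.652%) in 0 of the 28. SRSF3 and HNRNPAB both held CCAAT and TATA boxes. The part of these motifs in the responses to C16 was not tested. The median count of CpG dinucleotides was 30.5 in the members' promoters and 14 in all promoters, and SRSF8 held the fewest among the members, 3.

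Levels between genes were compared per length, as normalized counts per kilobase of gene model and per 1e6 counts. In control siRNA cells the members stood above 41.7% (HNRNPUL2) to 99.1% (HNRNPA2B1) of the genes tested. On this scale HNRNPA2B1, which packages and transports mRNA, was highest at 487 ± 12.3 (SD, n = 3). HNRNPA1, which binds splicing silencers, followed at 345 ± 8.35, HNRNPL, a reader of CA repeats, at 284 ± 11.5, and HNRNPK, a poly(C)-binding protein, at 228 ± 9.1, and the libraries of these 4 genes did not overlap. HNRNPC, which binds uridine tracts, stood at 192 ± 7.23, in reach of HNRNPAB at 185 ± 1.23. The libraries of HNRNPM, HNRNPH1 and HNRNPF overlapped, with means of 170 to 174.

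Among the SR genes, SRSF9 was highest on this scale at 146 ± 5.65, and SRSF2 (105 ± 7.1), a component of nuclear speckles, SRSF3 (99 ± 7.24), the smallest SR protein, and SRSF7 (85.5 ± 5.45), which also acts in mRNA export, overlapped in turn. SRSF9 shares 42.6% of its exon bases with GATC on the opposite strand, which had a mean normalized count of 98.2 in the siRNA table. SRSF1, the best-studied SR protein and a proto-oncogene, had 78.9 ± 1.74. SRSF8, an expressed retrocopy related to SRSF2, had 12 ± 0.443 and HNRNPUL2 9.73 ± 0.543, the lowest of the 30. HNRNPUL2 shares 46.5% of its exon bases with HNRNPUL2-BSCL2 on the same strand, which had means of 0.123 and 0 in the siRNA and C16 tables. How reads on shared bases were counted is not given in the sources used here. In DMSO cells HNRNPA2B1 (601 ± 5.08) and HNRNPA1 (307 ± 14) were again highest, and SRSF8 (13 ± 1.6) and HNRNPUL2 (12.7 ± 1.18) lowest, and the last pair overlapped.

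In DMSO-treated cells the 11 SR genes together took 0.256% ± 0.00324 (SD, n = 3) of the normalized counts, with 0.196% ± 0.00264 at 400 nM C16 and 0.189% ± 0.00175 at 800 nM. The 19 hnRNP genes took 0.978% ± 0.0107, 0.839% ± 0.0083 and 0.804% ± 0.0121. Every C16 library lay below every DMSO library for both sums. In the siRNA table the SR sum was 0.236% ± 0.0063 in control cells, 0.234% ± 0.00375 under PKR siRNA 1 and 0.222% ± 0.003 under PKR siRNA 2, and the hnRNP sum was 0.926% ± 0.0172, 0.919% ± 0.0202 and 0.897% ± 0.013. Both sums overlapped between control and PKR siRNA 1 libraries, and the hnRNP sum also between control and PKR siRNA 2. Fewer transcripts of these genes per cell cannot be told apart from more of other transcripts in shares of this kind.

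**Figure D1:**
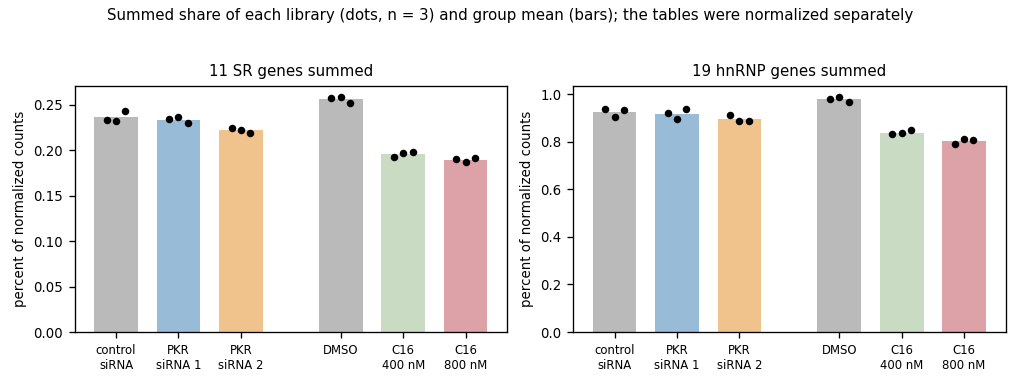
Percent of all normalized counts taken by the 11 SR genes (left) and the 19 hnRNP genes (right) in each group (bars, mean; dots, 3 libraries), with the siRNA and C16 tables normalized separately. With C16 the SR share was 0.189% to 0.196% beside 0.256% with DMSO, whereas the control siRNA and PKR siRNA 1 dots overlap.

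The comparison of 800 nM C16 with DMSO asked how these genes responded to the inhibitor. At an adjusted p under 0.05 (limma on log2 of the normalized count plus 1, adjusted over all 9963 genes tested), 24 of the 30 genes were lower and 1 was higher, where 22.6% of all genes tested were lower and 22.3% higher. The members' median log2 fold change was -0.37, beside 0.00 for all genes tested. With a fold change over 1.5 as well, 5 members were lower and 0 higher (14.1% and 11.6% of all genes tested), namely SRSF3, SRSF8, HNRNPA1, HNRNPDL and HNRNPH1. In a background of better-read genes (mean 100 or more), chosen after the data were seen, 26.1% were lower and 32.7% higher, and 22 of the 27 members above that mean were lower. Without the library C16 800 nM replicate 2, 8 members passed both thresholds.

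SRSF3 had normalized counts of 454, 421 and 394 with DMSO, 289, 302 and 303 at 400 nM and 262, 260 and 265 at 800 nM. The groups did not overlap, and the 800 nM libraries lay within 6 counts of each other. SRSF3 fell by 0.68 on the log2 scale at 800 nM (SE 0.0801, adjusted p = 2.01e-10), or by 37.8%, and by 0.50 at 400 nM (adjusted p = 1.43e-06).

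SRSF8 was counted at 54.4, 69.5 and 64.7 with DMSO, 38.3, 51.9 and 44.7 at 400 nM and 31.3, 41.4 and 27.7 at 800 nM. Its DMSO libraries lay above all C16 libraries, while the C16 doses overlapped. The log2 fold change of SRSF8, -0.90 at 800 nM, was the lowest among the 30 genes and had a wide error (SE 0.18, adjusted p = 3.54e-05), since its counts were low. At 400 nM it was -0.48 with an adjusted p of 0.0405, and the call was lost with DESeq2 on recovered reads, without the filter on low values and without DMSO replicate 2 or 3 or C16 400 nM replicate 1 or 3 (-0.59 to -0.37 with a library left out). How reads shared with SRSF2 or its copies were assigned is not given in the sources used here.

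The other SR genes had smaller log2 fold changes, all of them negative. At 800 nM, 9 of the 11 SR genes were lower and 0 higher, with a median log2 fold change of -0.50, and the same 9 were lower at 400 nM with a median of -0.39. At 800 nM, SRSF2 fell by 0.58, SRSF6 by 0.58, SRSF7 by 0.57, SRSF1 by 0.50, SRSF5 by 0.48, SRSF10, a repressor that dephosphorylation activates in heat shock, by 0.37, and SRSF11 by 0.25. SRSF11 (adjusted p = 0.0343) lost its call with DESeq2 and with total-count scaling, and also without DMSO replicate 2 or 3 or C16 800 nM replicate 2 or 3 (-0.32 to -0.18 with a library left out). At 400 nM SRSF11 lost its call with DESeq2 and without DMSO replicate 2 or C16 400 nM replicate 1 or 2 (-0.37 to -0.22), and SRSF6 without DMSO replicate 3 or C16 400 nM replicate 2 (-0.41 to -0.25).

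SRSF4 and SRSF9 did not pass the test at either dose. SRSF4 had log2 fold changes of -0.17 (95% interval -0.37 to 0.04) at 800 nM and -0.20 at 400 nM, and SRSF9 of -0.06 (-0.25 to 0.14) and -0.18. Of the exon bases of SRSF9, 42.6% also lie in GATC on the opposite strand, which had a mean normalized count of 58 in this table, beside 156 to 192 for SRSF9 in its libraries. Whether counting used strand is not given in the sources used here.

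Among the hnRNP genes, 15 of 19 were lower at 800 nM and 1 was higher, with a median log2 fold change of -0.36. HNRNPDL, a relative of the AU-rich element binding protein HNRNPD, had 218, 240 and 218 counts with DMSO, 149, 171 and 145 at 400 nM and 138, 127 and 122 at 800 nM. No library overlapped between its groups. It fell by 0.80 at 800 nM (SE 0.101, adjusted p = 1.76e-09), or by 42.6%, and by 0.54 at 400 nM (adjusted p = 2.65e-05).

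HNRNPA1 had 633, 689 and 658 counts with DMSO, 518, 484 and 516 at 400 nM and 404, 444 and 432 at 800 nM. Its libraries fell into 3 separate ranges. It fell by 0.63 at 800 nM (SE 0.0705, adjusted p = 5.91e-11) and by 0.38 at 400 nM (adjusted p = 2.22e-05). Processed copies of HNRNPA1 exist in the genome, of which HNRNPA1P10 had a mean of 11.4 and HNRNPA1L2 of 7.71 in this table, and reads shared with them could be split.

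HNRNPH1, which binds runs of guanosines, had 519, 483 and 486 counts with DMSO, 385, 416 and 361 at 400 nM and 281, 347 and 314 at 800 nM. Again no library overlapped between groups. It fell by 0.66 at 800 nM (SE 0.0795, adjusted p = 4.65e-10) and by 0.36 at 400 nM (adjusted p = 0.000395). HNRNPF and HNRNPH3, of the same subfamily, had smaller changes: HNRNPF fell by 0.22 at 800 nM (adjusted p = 0.00491), and HNRNPH3 had a log2 fold change of -0.18 (adjusted p = 0.0732).

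HNRNPAB, a CArG box-binding protein, was the exception. Its values are given because they went against the other 29, and this choice was made after they were seen. HNRNPAB had 296, 329 and 346 counts with DMSO, 364, 379 and 371 at 400 nM and 406, 447 and 402 at 800 nM. All C16 libraries lay above all DMSO libraries. It rose by 0.37 on the log2 scale at 800 nM (SE 0.0784, adjusted p = 8.97e-05), or 29.3%. At 400 nM its log2 fold change was 0.20 with an adjusted p of 0.0497, and this call was lost under 6 other settings and without any library of these groups but DMSO replicate 3 (0.14 to 0.25 with a library left out).

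The remaining hnRNP genes formed a graded series at 800 nM. HNRNPA3, close in sequence to HNRNPA1, fell by 0.57, HNRNPM by 0.54, HNRNPUL2 by 0.45 and HNRNPA0 by 0.44. HNRNPU, a nuclear scaffold protein, fell by 0.37, HNRNPK by 0.37, HNRNPC by 0.36, HNRNPUL1 by 0.25, HNRNPA2B1 by 0.22, HNRNPL by 0.21 and HNRNPR by 0.19. HNRNPD (-0.12, 95% interval -0.28 to 0.03) and HNRNPLL (-0.26, -0.58 to 0.06) were not past the adjusted p. HNRNPR (adjusted p = 0.0477) lost its call with edgeR, with DESeq2, with total-count scaling, without the filter, with only the groups compared in the fit and without DMSO replicate 1 or 3 or C16 800 nM replicate 2 (-0.25 to -0.11 with a library left out). HNRNPUL1 (-0.29 to -0.19) and HNRNPUL2 (-0.58 to -0.28) lost theirs with DESeq2 and without DMSO replicate 3 or C16 800 nM replicate 2, and HNRNPL (-0.24 to -0.18) without DMSO replicate 2 or C16 800 nM replicate 3.

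**Figure D2:**
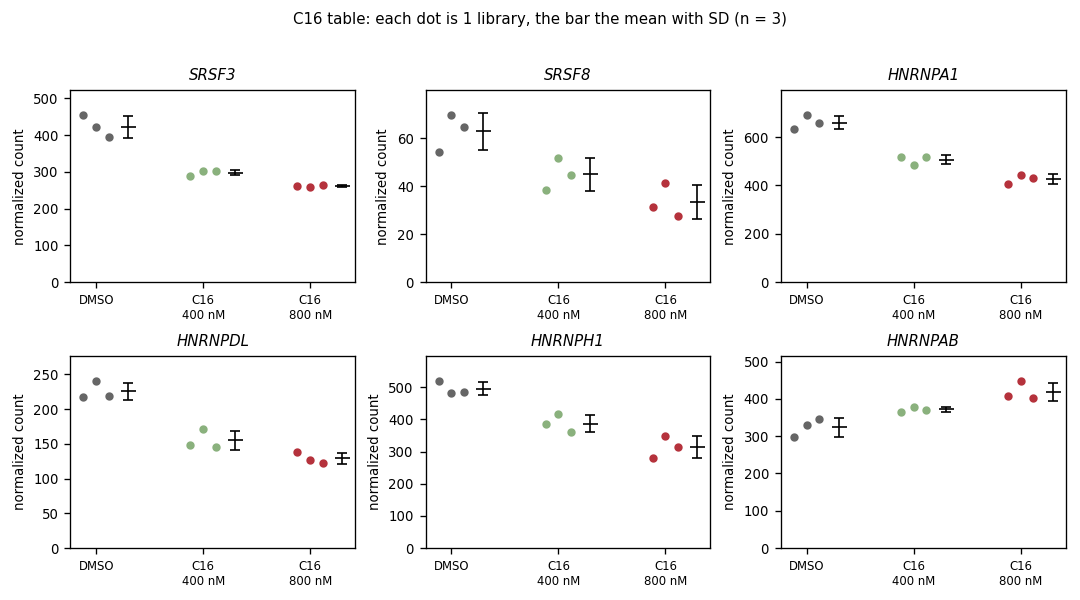
Normalized counts (y axis, from 0) of SRSF3, SRSF8, HNRNPA1, HNRNPDL, HNRNPH1 and HNRNPAB in the 3 libraries of each C16-table group (dots), with the mean and SD beside them. SRSF3 drops from 394 to 454 with DMSO to 260 to 265 at 800 nM, and HNRNPAB alone climbs, from 296 to 346 to 402 to 447.

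At 400 nM C16, 18 members were lower than with DMSO and 1 was higher, beside 11.9% of all genes tested lower and 14.6% higher, and the members' median log2 fold change was -0.28. None passed the fold change of 1.5 as well (limma, edgeR and DESeq2 each counted 0), where 5.45% of all genes tested were lower and 7.08% higher. At an unadjusted p under 0.05, 19 members were lower and 1 was higher. Without the library C16 400 nM replicate 2, 2 members passed both thresholds. In the background of better-read genes, 16.9% were lower and 24% higher, and 17 of 27 members were lower. HNRNPDL (-0.54), SRSF3 (-0.50), SRSF8 (-0.48), HNRNPA3 (-0.45), SRSF7 (-0.45), SRSF2 (-0.44) and SRSF5 (-0.44) had the lowest log2 fold changes. The call of HNRNPK (-0.22) was lost without C16 400 nM replicate 1 (-0.26 to -0.19 with a library left out).

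Of the 30 genes, 18 were lower at both doses, 6 at 800 nM only (HNRNPA0, HNRNPF, HNRNPL, HNRNPR, HNRNPUL1 and HNRNPUL2) and 0 at 400 nM only, and 5 passed at neither dose. These counts rest on the same DMSO libraries, and the share of all genes tested in each pattern was not counted. The doses were therefore also compared directly. The log2 value was lower at 800 than at 400 nM for 24 members, and 3 of these passed the adjusted p, where 9.18% of all genes tested were lower and 5.09% higher. The members' median difference between doses was -0.12, beside -0.02 for all genes tested. HNRNPH1 was lower by a log2 fold change of -0.30 (SE 0.0795, adjusted p = 0.00557), HNRNPA1 by -0.25 (adjusted p = 0.0122) and HNRNPA0 by -0.30 (adjusted p = 0.0229). By limma 0 of the 11 SR genes passed, and over all members 10 were lower and 1 higher at an unadjusted p under 0.05. The difference between doses was -0.18 for SRSF3 (95% interval -0.34 to -0.02, adjusted p = 0.115), -0.42 for SRSF8 (-0.78 to -0.06, adjusted p = 0.104) and 0.02 for SRSF10 (-0.17 to 0.22).

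**Figure D3:**
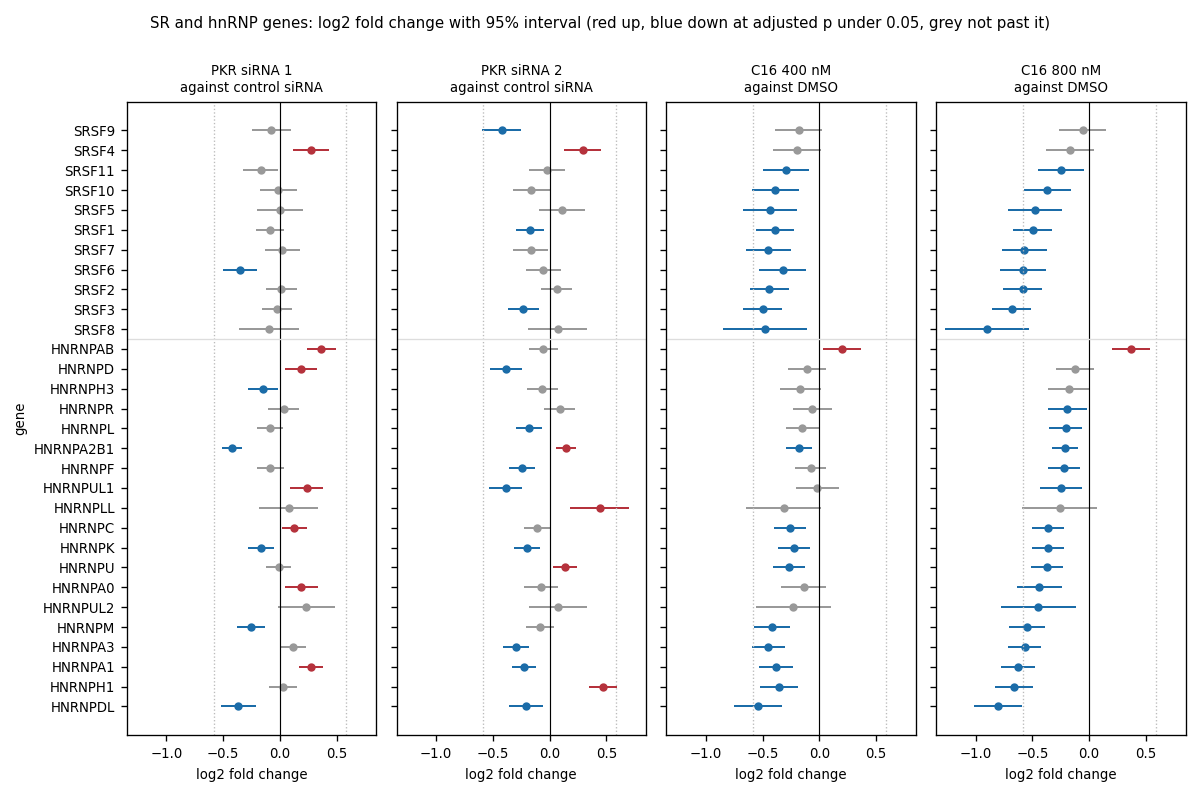
Log2 fold change against the table's own control (x axis) of each of the 30 genes (y axis, SR genes above, hnRNP genes below) in 4 comparisons, with 95% intervals, red for higher and blue for lower at an adjusted p under 0.05, grey for neither, and dotted lines at a fold change of 1.5. In the C16 panels 18 and 24 genes are blue and 1 is red, and in the siRNA panels 6 and 11 are blue and 7 and 5 are red.

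With the PKR siRNAs the same genes moved in both directions. Under PKR siRNA 1, 7 members were higher and 6 lower at an adjusted p under 0.05, beside 21.1% and 23.9% of the 10593 genes tested. That rate was near the background, and the median log2 fold change was -0.01 for the members and for all genes tested. Under PKR siRNA 2, 5 were higher and 11 lower, beside 22.1% and 25.2%, with a median of -0.08. Past both thresholds, limma, edgeR and DESeq2 each counted 0 members with either siRNA, where 8.53% of all genes tested were higher and 12.6% lower under PKR siRNA 1, and 10.8% and 12.8% under PKR siRNA 2. At an unadjusted p under 0.05, 8 members were higher and 7 lower under PKR siRNA 1, and 5 and 14 under PKR siRNA 2. In the background of better-read genes (mean 100 or more), 28.3% were higher and 30.2% lower under PKR siRNA 1. Of the 27 members above that mean, 7 were higher and 6 lower. For PKR siRNA 2 the background was 26.3% and 32.7%, beside 4 and 11 of the 27 members.

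Of the 30 genes, 15 passed with 1 siRNA only, 8 with neither, 4 with both in opposite directions, 2 were lower with both and 1 was higher with both. How often all genes tested showed each pattern was not counted, so no pattern is read as particular to the members. The genes of these patterns are described with their values after these were seen. SRSF4, the member higher with both, had 239, 250 and 260 counts in control cells, 307, 305 and 295 under PKR siRNA 1 and 295, 319.5 and 303 under PKR siRNA 2. Every knockdown library lay above every control library. It rose by 0.27 (adjusted p = 0.00235) and 0.29 (adjusted p = 0.00111), and the siRNAs differed by 0.02 (95% interval -0.14 to 0.17).

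HNRNPDL and HNRNPK were lower with both siRNAs, and both were also lower at both C16 doses. HNRNPDL had 413, 420 and 416 counts in control cells, 311, 350 and 309 under PKR siRNA 1 and 360, 374 and 346 under PKR siRNA 2, with no overlap with the control. It fell by 0.37 (SE 0.0716, adjusted p = 1.48e-05) and 0.21 (adjusted p = 0.0122), and the latter call was lost with DESeq2 and without PKR siRNA 2 replicate 3 (-0.24 to -0.18 with a library left out). HNRNPK had 1246, 1167 and 1251 counts in control cells, 1151, 995 and 1121 under PKR siRNA 1 and 1072, 1074 and 1039 under PKR siRNA 2. It fell by 0.17 (adjusted p = 0.00662) and 0.20 (adjusted p = 0.000989), and without PKR siRNA 1 replicate 2 the former was not past 0.05 (-0.21 to -0.10).

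HNRNPA2B1, HNRNPA1, HNRNPD and HNRNPUL1 went in opposite directions with the siRNAs. HNRNPA2B1 had 3197, 3041 and 3113 counts in control cells, 2228, 2331 and 2410 under PKR siRNA 1 and 3540, 3455 and 3352 under PKR siRNA 2. The 3 groups did not overlap. It fell by 0.42 with PKR siRNA 1 (SE 0.0409, adjusted p = 1.1e-14) and rose by 0.15 with PKR siRNA 2 (adjusted p = 0.00209).

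HNRNPA1 ran the other way, with 1141, 1125 and 1176 counts in control cells, 1394, 1358 and 1415 under PKR siRNA 1 and 989, 958 and 994 under PKR siRNA 2. It rose by 0.28 (SE 0.0499, adjusted p = 3.18e-06) and fell by 0.23 (adjusted p = 9.54e-05). HNRNPUL1, related to the scaffold protein HNRNPU, had 443, 479 and 447 counts in control cells, 518, 572 and 525 under PKR siRNA 1 and 345, 325 and 377 under PKR siRNA 2. No library of HNRNPA1 or HNRNPUL1 overlapped between groups.

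HNRNPUL1 rose by 0.24 (adjusted p = 0.00294) and fell by 0.39 (adjusted p = 1.84e-06). HNRNPD, which binds AU-rich elements and promotes mRNA decay, had 526, 532 and 566 counts in control cells, 649, 577 and 623 under PKR siRNA 1 and 391, 415 and 437 under PKR siRNA 2. It rose by 0.19 (adjusted p = 0.0142) and fell by 0.38 (adjusted p = 5.84e-07). The rise of HNRNPD was not past 0.05 without replicate 1 of either the control or PKR siRNA 1 (0.15 to 0.23 with a library left out).

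**Figure D4:**
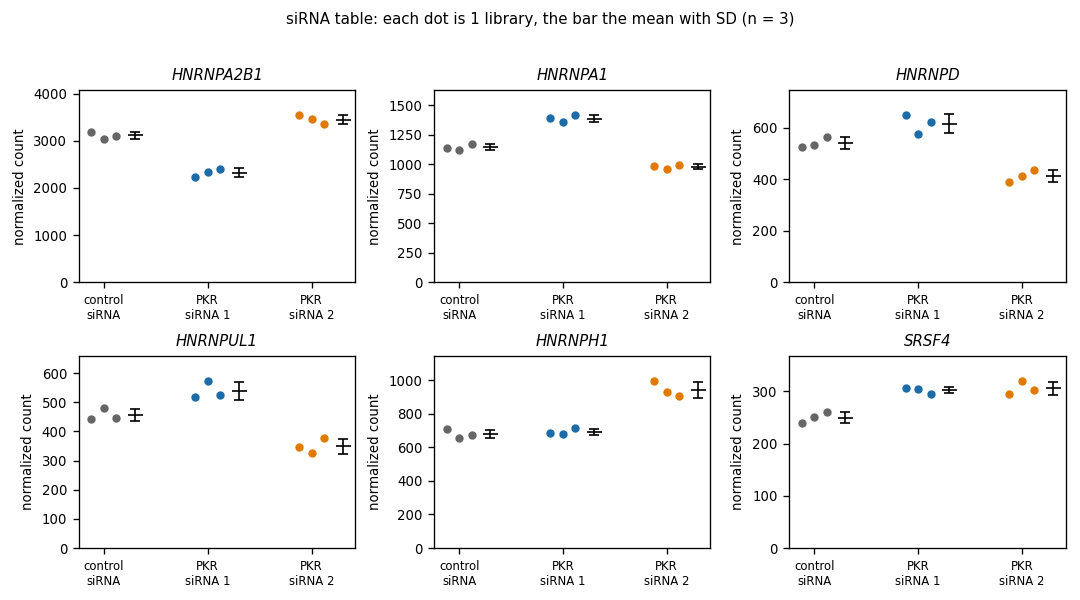
Normalized counts (y axis, from 0) of HNRNPA2B1, HNRNPA1, HNRNPD, HNRNPUL1, HNRNPH1 and SRSF4 in the 3 libraries of each siRNA-table group (dots), with the mean and SD beside them. HNRNPA2B1 lies at 2228 to 2410 with PKR siRNA 1 and 3352 to 3540 with PKR siRNA 2, on opposite sides of the control, whereas SRSF4 is raised with both.

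Some members passed the adjusted p with 1 siRNA only. Of these, HNRNPH3, HNRNPL and SRSF1 did not pass it in the direct comparison of the siRNAs given below. HNRNPH1 rose by 0.47 with PKR siRNA 2 (SE 0.0569, adjusted p = 5.11e-11), from 709, 659 and 671 counts to 995, 929 and 904, and had 683, 679 and 714 counts and a log2 fold change of 0.03 (95% interval -0.09 to 0.14) with PKR siRNA 1. HNRNPAB rose by 0.37 with PKR siRNA 1 (adjusted p = 3.91e-07) and stood at -0.06 on the log2 scale with PKR siRNA 2 (adjusted p = 0.473). SRSF6 fell by 0.35 with PKR siRNA 1 (adjusted p = 4.1e-05), and SRSF9 by 0.42 (adjusted p = 1.34e-05) and SRSF3 by 0.23 (adjusted p = 0.00133) with PKR siRNA 2. The part of the exon bases that SRSF9 shares with GATC in its fall was not tested.

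Past the adjusted p with PKR siRNA 1 alone, HNRNPM (-0.26) and HNRNPH3 (-0.15) were also lower and HNRNPA0 (0.19) and HNRNPC (0.13) higher. Of these, HNRNPH3 (adjusted p = 0.0489) lost its call with edgeR, with DESeq2, with median-of-ratios or total-count scaling, without the filter, with only the groups compared in the fit, with the replicate block (adjusted p = 0.052) and when any library but PKR siRNA 1 replicate 3 was left out (-0.18 to -0.12), HNRNPC with DESeq2, without the filter and without control replicate 2 or 3 or PKR siRNA 1 replicate 1 or 3 (0.10 to 0.17), and HNRNPA0 without control replicate 1 or PKR siRNA 1 replicate 2 (0.16 to 0.21). Past the adjusted p with PKR siRNA 2 alone, HNRNPA3 (-0.30), HNRNPF (-0.24), HNRNPL (-0.18) and SRSF1 (-0.17) were lower. HNRNPLL (0.44), known for the splicing of CD45 in lymphocytes, and HNRNPU (0.13) were higher with PKR siRNA 2 alone. HNRNPU lost its call without the filter and without control replicate 2 or 3 or PKR siRNA 2 replicate 1 or 3 (0.11 to 0.18), and SRSF1 with DESeq2 and without replicate 3 of either group (-0.19 to -0.14). SRSF2, SRSF5, SRSF7, SRSF8, SRSF10, SRSF11, HNRNPR and HNRNPUL2 passed with neither, and the first 6 of these were lower at both C16 doses.

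The siRNAs were also compared directly, to test whether they differed from each other. Between PKR siRNA 2 and PKR siRNA 1, 6 members were higher and 11 lower, beside 27.7% and 29.3% of all genes tested, a rate near the background. Among them HNRNPUL1 (-0.62, adjusted p = 9.15e-13), HNRNPD (-0.57, adjusted p = 3.12e-12), HNRNPA2B1 (0.57, adjusted p = 4.31e-21) and HNRNPA1 (-0.50, adjusted p = 1.74e-14) differed by a log2 fold change of at least 0.50 in size.

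Other genes of the splicing and decay machinery were read from 5 lists for comparison. Of all genes tested, 22.3% were higher and 22.6% lower at 800 nM C16, and 14.6% and 11.9% at 400 nM. The shares were 21.1% and 23.9% under PKR siRNA 1, and 22.1% and 25.2% under PKR siRNA 2. Many list counts lay near these shares, and no list was tested as a set. Of the 9 kinases and importers of SR proteins, which phosphorylate the arginine/serine tail or carry it into the nucleus, 0 were higher and 2 lower at 800 nM C16 at an adjusted p under 0.05, with a median log2 fold change of 0.07. CLK2, a nuclear SR kinase, fell by 0.61 (adjusted p = 0.0117). SRPK1, the main cytoplasmic SR kinase, fell by 0.94 with PKR siRNA 2 (adjusted p = 6.55e-15), and its relative SRPK2 rose by 0.74 and 0.78 with PKR siRNA 1 and PKR siRNA 2 (adjusted p = 5.63e-09 and 1.06e-09).

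Of 16 SR-related and Tra2 genes, 3 were higher and 4 lower at 800 nM (median -0.16), and 0 and 4 at 400 nM. SREK1 fell by 0.78 with PKR siRNA 2 (adjusted p = 1.45e-11). With the siRNAs, 2 were higher and 5 lower with each.

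Of 25 other splicing regulators, 0 were higher and 12 lower at 800 nM, with a median of -0.26, and 0 and 9 at 400 nM, with a median of -0.16. PTBP1, the polypyrimidine tract-binding protein also called hnRNP I, fell by 0.70 at 800 nM (adjusted p = 1.24e-11), MBNL2 by 1.00 (adjusted p = 2.01e-09), RBMX, also called hnRNP G, by 0.60 (adjusted p = 2.02e-07) and TIA1, which also nucleates stress granules, by 0.91 (adjusted p = 1.23e-06). At 400 nM TIA1 fell by 0.94 (adjusted p = 1.48e-06) and ESRP2, an epithelial splicing regulator, by 0.69 (adjusted p = 0.0301). With PKR siRNA 1, MBNL1 rose by 1.27 and MBNL2 fell by 0.62, TIA1 by 0.63 and PTBP2 by 1.16, and with PKR siRNA 2 QKI rose by 0.67 and PTBP2 fell by 1.57, MBNL1 by 0.66 and PTBP3 by 0.62.

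The core machinery was mixed. Of 30 core snRNP and U2AF genes, 8 were higher and 10 lower at 800 nM (median -0.09), and 3 and 4 at 400 nM (median -0.01). The spliceosome subunits PRPF6 and SF3B3 fell by 0.73 and 0.60 at 800 nM (adjusted p = 1.83e-08 and 1.21e-06), and PRPF4 and SNRPA1 rose by 0.72 and 0.70 (adjusted p = 1.76e-05 and 7.41e-07). With PKR siRNA 1, 9 of these genes were higher and 6 lower, and SNRPB2 rose by 0.80. With PKR siRNA 2, 3 were higher and 15 lower, SNRPB2 rose by 0.67, and SNRPA1 fell by 1.03 and PRPF3 by 0.59.

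Of 10 nonsense-mediated decay factors, which act on the decay transcripts shown above, 2 were higher and 3 lower at 800 nM (median -0.04), and 1 and 0 at 400 nM. SMG8 fell by 0.87 at 800 nM (adjusted p = 0.00456) and SMG6, an endonuclease of the pathway, by 0.65 (adjusted p = 0.00519). With PKR siRNA 1, 2 were higher and 3 lower, and with PKR siRNA 2, 3 were higher and 1 lower, where SMG5 rose by 1.01 (adjusted p = 1.37e-22). The part of decay in the member counts was not tested.

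**Figure D5:**
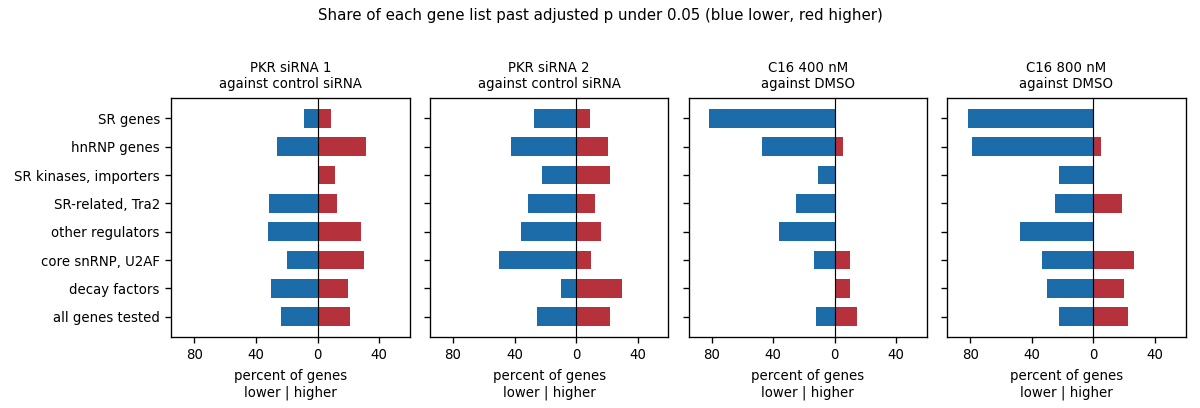
Percent of each list's tested genes that were lower (blue, left) or higher (red, right) at an adjusted p under 0.05 in 4 comparisons, with all genes tested in the last bar. At 800 nM C16 9 of 11 SR genes and 15 of 19 hnRNP genes are lower, beside 22.6% of all genes tested and 10 of 30 core snRNP and U2AF genes.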

How the data were processed

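The deposited values are signal in the form of TMM-normalized counts per gene, which the authors made with TopHat (hg38), featureCounts and TCC from poly(A) RNA libraries prepared with a directional kit. Tool versions, annotation and strand setting are not given in the sources used here. Groups followed the sample labels, with 3 libraries each, and 0 value columns were left unmapped. The authors' own statistics were not used.

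Values were tested with limma 3.58.1 (R 4.3.3; lmFit and eBayes with trend) on log2(value + 1), over all 9 libraries of a table and genes with a mean of at least 10, with Benjamini-Hochberg adjustment, so folds of low genes are understated. Thresholds were an adjusted p of 0.05, alone or with a fold change over 1.5. For the count tests, edgeR 4.0.16 and DESeq2 1.42.0, whole reads were recovered from the deposited values. All 18 replicate pairs differed beyond sampling noise (chi-square per degree of freedom 1.03 to 1.63). Nothing says that replicates were separate cultures, so p-values measure the spread between these samples, which may be technical. Fits were tested on simulated data for calls past both thresholds only, which does not cover calls at the adjusted p alone. The members and lists were chosen with earlier results of these data known. By rule, every member is named, members past both thresholds in a comparison with a control get values per library, and at most 4 genes per list and comparison are named by adjusted p among those past both. A gene that this rule would name is not reported here.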

Additional observations from a re-analysis of the deposited data

Results flagged for a closer look

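Between PKR siRNA 2 and PKR siRNA 1, the difference itself passed the test (limma, adjusted p under 0.05) for 17 of the 30 genes, beside 27.7% of all genes tested higher and 29.3% lower. The log2 fold change of PKR siRNA 2 against PKR siRNA 1 was -0.62 for HNRNPUL1, -0.57 for HNRNPD, -0.50 for HNRNPA1, -0.42 for HNRNPAB, -0.42 for HNRNPA3, -0.35 for SRSF9, -0.26 for HNRNPA0, -0.24 for HNRNPC, -0.21 for SRSF3, -0.19 for SRSF7 and -0.16 for HNRNPF. It was 0.57 for HNRNPA2B1, 0.44 for HNRNPH1, 0.36 for HNRNPLL, 0.30 for SRSF6, 0.17 for HNRNPM and 0.15 for HNRNPU.

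Between the C16 doses the difference passed the test for 3 of the 30 genes, beside 9.18% of all genes tested lower and 5.09% higher. The log2 fold change of 800 against 400 nM was -0.30 for HNRNPA0, -0.25 for HNRNPA1 and -0.30 for HNRNPH1.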

How the results depend on the processing

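Over 1920 tests of single members under other settings (pseudocounts of 0.5 and 5, no filter or a minimum mean of 30, median-of-ratios scaling, only the groups compared, the replicate block, edgeR, DESeq2, each library left out, and total-count scaling, which was chosen after seeing the data), 1829 stayed on the same side of the threshold, 79 calls were lost and 12 gained, and 0 members past the threshold changed sign. At 800 nM C16, 20 to 24 members were lower under the settings that kept all libraries, and 20 to 25 with a library left out. Past both thresholds, 4 to 8 were lower with a library left out, and edgeR counted 6 and DESeq2 7. At 400 nM, 16 to 18 were lower throughout, and 0 to 2 passed both thresholds with a library left out. The 1 higher member at 400 nM, HNRNPAB, became 0 with a pseudocount of 0.5, no filter, median-of-ratios scaling, only the groups compared, edgeR and DESeq2, and ranged from 0 to 1 with a library left out, and the cause was not tested. The members' median at 400 nM was -0.30 with median-of-ratios scaling and with DESeq2, and -0.31 to -0.25 with a library left out. For PKR siRNA 2 it was -0.0598 with median-of-ratios scaling, -0.0612 with edgeR and -0.0595 with DESeq2, and -0.0941 to -0.0754 with a library left out. For PKR siRNA 1 it was 0.0255 with total-count scaling, against -0.00623 in the report, and -0.0297 to 0.00595 with a library left out. The gained calls were HNRNPA3 for PKR siRNA 1 (0.13 with median-of-ratios scaling and with edgeR, 0.15 with total-count scaling, 0.17 without PKR siRNA 1 replicate 2), SRSF7 (-0.21 without replicate 3 of either group, -0.17 with a minimum mean of 30 or only the groups compared), SRSF10 (-0.21 without PKR siRNA 2 replicate 2) and HNRNPC (-0.14 without control replicate 2) for PKR siRNA 2, HNRNPH3 at 800 nM (-0.23 without C16 800 nM replicate 1) and HNRNPLL at 400 nM (-0.46 without C16 400 nM replicate 1). No scaling moved the median of all genes tested by more than 0.1.

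Same-numbered libraries did not deviate together (r of their deviations -0.05 to 0.03), which does not show whether they shared a culture or a preparation. With the replicate number as a block, 24 members were lower and 1 higher at 800 nM, 18 and 1 at 400 nM, 5 lower and 7 higher for PKR siRNA 1, and 11 and 5 for PKR siRNA 2, so that the count moved only through HNRNPH3, which lost its call for PKR siRNA 1.

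Depth limits the low genes: SRSF8, HNRNPLL and HNRNPUL2, with at most 124 counts in any library, had the widest errors of the 30 genes. The part of the shared exon bases of HNRNPUL2 in its low counts was not tested.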
